A study of Homo sapiens with 6 samples.

Results

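The genes described here are the longest protein-coding genes of the human genome, those whose annotated span is 500 kb or more. They were taken from the RefSeq gene table of GRCh38 on chromosomes 1 to 22 and X, and genes whose symbols begin with KCN, FOX, SOX or KIF were left out together with RORA, RARB, ESRRG, THRB, ESR1 and FARS2. The rule gave 302 of 19451 protein-coding genes that span 1 kb or more, and 314 genes had the length before names were left out. Their lengths ran from 500.05 kb to 2474 kb with a median of 723 kb, 67 of them were longer than 1 Mb, and 11 lay on the X chromosome. The rule used length and name, and no measured value of the study.

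The study set chromatin immunoprecipitation and sequencing (ChIP-seq) beside mass spectrometry of whole nucleosomes, and used HEK293T, an established embryonic kidney line that expresses the large T antigen of SV40. Each of 5 antibodies gave 1 library and 1 list of peaks from formaldehyde-fixed cells, for which the labels name no treatment. H2A.Z, a variant of histone H2A, was precipitated with antibodies of different makers, CST and Abcam, whose lists are named H2AZ Abcam and H2AZ CST. The remaining antibodies were against H3K79me2 (lysine 79 of histone H3 with 2 methyl groups), H4K16ac (lysine 16 of histone H4 with an acetyl group) and the variant H3.3. An input library was not analysed here. On the chromosomes used there were 54476 peaks of H3K79me2, 76748 of H4K16ac, 72287 of H3.3, 44634 of H2AZ Abcam and 52325 of H2AZ CST, and the sources used here do not give their read depth. With 1 library per antibody there was no replicate spread and no test. Intervals below are exact 95% intervals that cover counting error over genes or peaks only. VIM and NEFM, which HEK293T cells are known to express, had a peak of all 5 lists at a gene end, while the kidney tubule gene UMOD and the blood cell gene PTPRC had none. PAX2, another HEK293T marker, had peaks of H2AZ CST, H3.3 and H4K16ac and none of H3K79me2, the podocyte gene NPHS1 had peaks of every list but H3K79me2, and the collecting duct gene AQP2 had the same 3 lists as PAX2.

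H2A.Z and H3.3 replace the canonical histones H2A and H3 in nucleosomes at active gene starts and enhancers. H3K79me2 is written by DOT1L, which travels with elongating RNA polymerase II, and is known to mark the early part of transcribed genes. H4K16ac is written by KAT8 and loosens chromatin. Many of the longest human genes encode neuronal adhesion molecules, receptors and scaffolds, need hours for one round of transcription, and lie at common fragile sites, where replication stress breaks chromosomes.

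The outermost start of each gene was taken as the end of its RefSeq span on the side of its strand. The strand was known from the RefSeq promoter table for 251 of the 302 genes, and the other 51, which include LRP1B, AGAP1, PTPRN2 and SORCS2, are described by either end. In 181 of the 251 the promoter table held a start at exactly that position. The sequences just before 6 of these starts are shown because they stand at the extremes of what follows: FAF1, CAMTA1 and LRBA had the longest stretch of H3K79me2 from the outermost start, and DMD, EYS and NRXN3 were the longest genes with no peak of any list within 5 kb of theirs. Each line gives the 250 bases upstream of the start, 5′ to 3′ on the gene's strand, from RefSeq on GRCh38.p14, with each CG in capitals.
FAF1: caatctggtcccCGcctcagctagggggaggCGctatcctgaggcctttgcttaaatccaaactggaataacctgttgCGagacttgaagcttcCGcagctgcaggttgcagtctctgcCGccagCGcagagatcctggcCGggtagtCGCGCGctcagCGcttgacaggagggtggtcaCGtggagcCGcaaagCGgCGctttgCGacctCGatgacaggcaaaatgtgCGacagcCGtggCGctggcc
CAMTA1: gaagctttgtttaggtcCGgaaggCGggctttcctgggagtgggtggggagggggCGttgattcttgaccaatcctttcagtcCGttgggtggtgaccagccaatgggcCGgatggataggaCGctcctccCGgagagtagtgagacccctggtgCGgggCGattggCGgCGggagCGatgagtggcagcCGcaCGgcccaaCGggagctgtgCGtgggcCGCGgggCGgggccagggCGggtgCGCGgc
LRBA: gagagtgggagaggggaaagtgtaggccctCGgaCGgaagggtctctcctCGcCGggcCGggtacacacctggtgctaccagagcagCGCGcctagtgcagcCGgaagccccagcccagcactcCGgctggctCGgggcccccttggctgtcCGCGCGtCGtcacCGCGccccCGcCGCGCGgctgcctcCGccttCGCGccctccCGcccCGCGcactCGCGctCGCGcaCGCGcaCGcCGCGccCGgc
DMD: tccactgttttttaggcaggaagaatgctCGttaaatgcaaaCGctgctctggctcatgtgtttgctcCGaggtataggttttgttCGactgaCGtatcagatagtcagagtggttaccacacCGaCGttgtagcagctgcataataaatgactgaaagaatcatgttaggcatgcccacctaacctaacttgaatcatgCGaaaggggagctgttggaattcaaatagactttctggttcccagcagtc
EYS: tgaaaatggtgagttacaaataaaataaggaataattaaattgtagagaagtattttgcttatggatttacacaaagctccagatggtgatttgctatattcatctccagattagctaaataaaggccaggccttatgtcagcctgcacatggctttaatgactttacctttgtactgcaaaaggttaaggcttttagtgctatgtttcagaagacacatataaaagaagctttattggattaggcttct
NRXN3: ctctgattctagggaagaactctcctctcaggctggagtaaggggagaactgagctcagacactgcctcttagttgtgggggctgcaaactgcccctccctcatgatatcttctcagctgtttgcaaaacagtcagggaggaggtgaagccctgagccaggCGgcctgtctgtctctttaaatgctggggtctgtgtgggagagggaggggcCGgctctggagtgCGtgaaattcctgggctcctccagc
The FAF1 sequence lies at chr1:50960268-50960517 on the minus strand, and FAF1 encodes a ubiquitin-binding partner of the FAS death receptor. It holds 20 CG dinucleotides, and 42.2% of the 21730 coding promoters in the table hold as many or more. CAMTA1, a calmodulin-binding transcription activator, has its sequence at chr1:6785204-6785453 on the plus strand with 22 CG, a number reached by 36.4% of promoters. LRBA, a vesicle trafficking protein, has its sequence at chr4:151015728-151015977 on the minus strand with 36 CG, reached by 6.19%. DMD encodes dystrophin, which ties the actin skeleton of muscle to the matrix, and its sequence at chrX:33339389-33339638 on the minus strand holds 8 CG, reached by 70.4%. EYS, a photoreceptor matrix protein, has no CG in its sequence at chr6:65707227-65707476 on the minus strand. NRXN3, a presynaptic neurexin, has 3 CG at chr14:78170123-78170372 on the plus strand, reached by 86.8%. CG is its own reverse complement, so both strands give the same count. Over all 181 genes the median was 24 CG in the 72 with H3K79me2 at the start, 21 in the 59 with H2AZ CST and no H3K79me2 there, and 4 in the 41 with no list at the start, and the median of all coding promoters was 17.

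At the start, H2A.Z was found at most of these genes and H3K79me2 at about 1 in 3 of them. A peak within 1 kb of the outermost start was counted as a start peak. Starts with another gene nearby were not counted apart, and what such neighbours add was not tested. Span ends with no promoter-table start at that exact position were counted too. Among the 181 genes with one, 72 had H3K79me2 at the start and 41 had no list. Among all 251 genes these counts were 91 and 72. The shorter genes were not split this way, so what such ends add to the differences below was not tested. H2AZ Abcam had one at 177 of 251 genes (70.5%, interval 64.5 to 76.1), against 78.5% of genes of 100 to 500 kb and 70.6% of all oriented genes. H2AZ CST had one at 166 (66.1%, 59.9 to 72.0), against 76.7% and 70%. H3.3 marked 126 (50.2%, 43.8 to 56.5), against 65.7% and 62.8%. These shares lay below those of the next shorter genes for all 3 lists, with intervals that did not overlap (interval of the shorter genes 76.8 to 80.1 for H2AZ Abcam, 74.96 to 78.3 for H2AZ CST and 63.8 to 67.6 for H3.3). Against all oriented genes, the H2A.Z shares lay near the background and the H3.3 share below it. H3K79me2 marked 91 starts (36.3%, 30.3 to 42.5), against 59.2% (57.2 to 61.1) of genes of 100 to 500 kb and 56.5% of all oriented genes. H4K16ac marked 85 (33.9%, 28.03 to 40.1), against 48.0% (46.0 to 49.96) and 50.8%. The 3037 genes of 100 to 500 kb, 2495 of them oriented, are the nearest class in length.

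**Figure D1:**
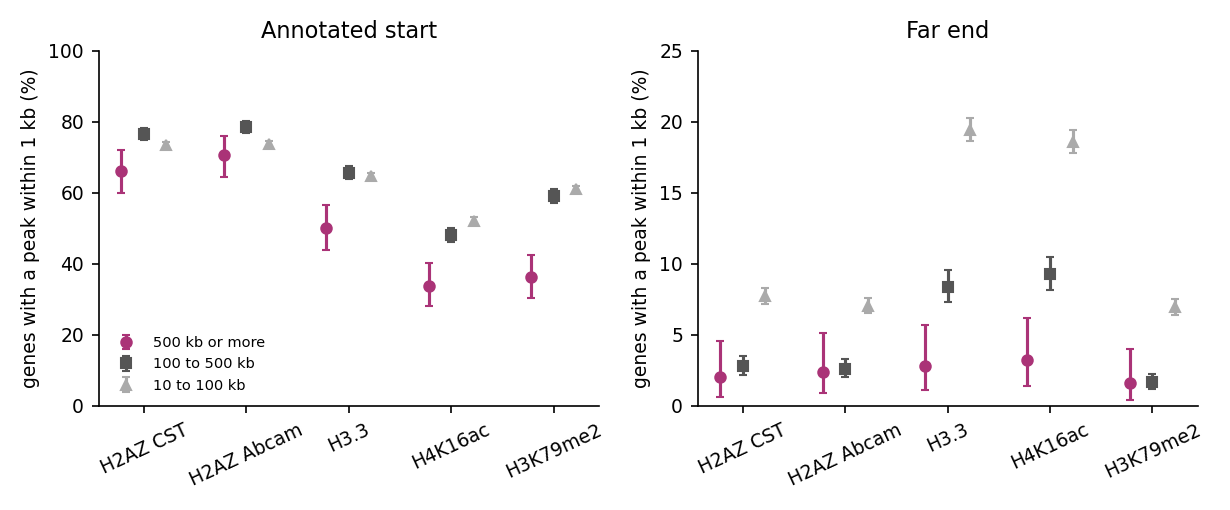
Share of oriented genes (%) with a peak within 1 kb of the outermost start (left) and of the far end (right) for each list. The genes are 251 of 500 kb or more, 2495 of 100 to 500 kb and 8794 of 10 to 100 kb. Exact 95% intervals cover counting error only, and the right axis stops at 25%. H3K79me2 stood at 36.3% of the starts of the longest genes, against 59.2% at 100 to 500 kb, and no list passed 3.19% at their far ends.

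Where H2A.Z was present, the other marks were also less frequent than at other genes. All 166 starts with H2AZ CST also had H2AZ Abcam. Of these 166, 91 had H3K79me2 (54.8%, 46.9 to 62.5), against 76.1% (74.1 to 78.0) of the 1913 such starts in genes of 100 to 500 kb and 78.2% of those in all oriented genes. H3.3 was at 123 of the 166 (74.1%, 66.7 to 80.6), against 83.1% (81.3 to 84.7) at 100 to 500 kb, and H4K16ac at 82 (49.4%, 41.6 to 57.3), against 60.3% (58.0 to 62.5). Every start with H3K79me2 carried H2AZ CST. Starts with H2A.Z as the sole list, counting H2AZ CST, H3.3, H4K16ac and H3K79me2, numbered 33 (13.1%, 9.23 to 17.97), against 3.74% of all oriented genes. A further 25 (9.96%, 6.55 to 14.4) had H2A.Z with H3.3 alone, against 3.37% of all. All 4 lists met at 62 starts (24.7%, 19.5 to 30.5), against 36.4%, and none of them was found at 80 (31.9%, 26.2 to 38.0), against 23.6%. With both H2A.Z antibodies counted, 72 starts had no list and 62 had all 5.

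Peak strength separated H3K79me2 from the other lists. The authors' −log10 q of the strongest start peak had a median of 67.4 for H3K79me2 in the longest genes, against 135 in genes of 100 to 500 kb. For H2AZ CST the medians were 35.2 against 37.7, for H2AZ Abcam 127 against 118, for H3.3 20.9 against 22.2 and for H4K16ac 7.91 against 8.78. Genes of 1 Mb or more had H3K79me2 at 16 of 55 starts (29.1%, 17.6 to 42.9), those of 700 kb to 1 Mb at 34 of 77 (44.2%, 32.8 to 55.9) and those of 500 to 700 kb at 41 of 119 (34.5%, 26.0 to 43.7), and these intervals overlapped.

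The far end was almost free of peaks. H2AZ CST marked 5 of 251 far ends (1.99%, 0.650 to 4.59), against 2.77% at 100 to 500 kb and 8.55% of all oriented genes. H2AZ Abcam marked 6 (2.39%, 0.882 to 5.13), against 2.61% and 8.02%, and H3K79me2 marked 4 (1.59%, 0.436 to 4.03), against 1.64% and 9.42%. For these 3 lists the intervals overlapped those of the next shorter genes. H3.3 marked 7 (2.79%, 1.13 to 5.66), against 8.38% (7.32 to 9.53) and 21.1%, and H4K16ac 8 (3.19%, 1.39 to 6.18), against 9.26% (8.15 to 10.5) and 19.4%. Peaks of any list stood at 13 far ends, and 8 of these had another annotated gene within 5 kb, which held for 93 of all 251 far ends. GMDS, a GDP-mannose dehydratase of fucose synthesis, had all 5 lists at its far end with no other annotated gene within 5 kb, and DOCK3, a Rac activator of neurons, had all 5 with the MANF gene within 5 kb.

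Counting all 302 genes whatever their strand, H2AZ Abcam had a peak at either end of 218 (background over all coding genes 71.1%), H2AZ CST at 201 (70.7%), H3.3 at 152 (64.5%), and H4K16ac and H3K79me2 at 108 each (55% and 55.4%). Although these genes offer the longest stretch in which a peak could fall, 159 of them (52.6%, 46.9 to 58.4) had no H3K79me2 peak from end to end, against 32.1% of genes of 100 to 500 kb and 40.2% of all. No H4K16ac peak was found in 109 (36.1%), against 30.03% at 100 to 500 kb and 34.8% of all, and no H3.3 peak in 93 (30.8%), against 20.6% and 28.7%. H2AZ CST was missing from 35 (11.6%), against 9.15% and 21.3%, and H2AZ Abcam from 22 (7.28%), against 7.84% and 21.2%, so for H2A.Z the shares were close to those of the next shorter genes. There were 117 genes with a peak of all 5 lists (38.7%, 33.2 to 44.5), against 53.3% at 100 to 500 kb and 45.7% of all, and 18 with no peak at all (5.96%, 3.57 to 9.26), against 5.24% and 15.3%. The 18 include IL1RAPL1 and LRRC4C, both synaptic organisers, the cadherin CDH13, the phosphatase PTPRT and the glutamate receptor gene GRM5.

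The 5 longest genes showed how far apart length and marks can be. RBFOX1, a neuronal splicing regulator of 2474 kb, had a start peak of H2AZ Abcam alone, with a −log10 q of 6.76, and neither H3.3, H4K16ac nor H3K79me2 anywhere. CNTNAP2, an axonal adhesion protein of 2304 kb, had start peaks with −log10 q of 38.1 for H2AZ CST and 87.6 for H2AZ Abcam and no H3K79me2. PTPRD, a receptor tyrosine phosphatase of 2299 kb, had 9.26 and 63.7 for H2AZ CST and H2AZ Abcam at its start and again no H3K79me2. DMD, of 2220.2 kb, had no start peak and 1 inner peak each of H2AZ CST and H2AZ Abcam, with 7 starts in the promoter table. DLG2, a postsynaptic scaffold of 2173 kb, was the only one of the 5 with H3K79me2 (−log10 q 44.9), beside 13.0 for H2AZ CST, 36.1 for H2AZ Abcam and 8.67 for H3.3, and its H3K79me2 ended 0.561 kb into the gene. Another gene, TMEM126B, lay within 5 kb of that H3K79me2. H2A.Z was thus found in all 5 and H3K79me2 in 1 of them.

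H3K79me2 reached a short way into these genes. Reach was measured from the outermost start to the far edge of a chain of H3K79me2 peaks that began within 5 kb of it and had no gap over 5 kb. A chain existed in 94 of 251 genes (37.5%, 31.4 to 43.8), against 62.0% of genes of 100 to 500 kb and 59.7% of all oriented genes. Its median was 1.67 kb (interval of the median 1.19 to 2.58), against 4.08 kb (3.65 to 4.79) in the 1546 chains of genes of 100 to 500 kb and 4.22 kb (3.97 to 4.43) in the 5646 of genes of 10 to 100 kb. With its gaps counted, the chain spanned a median of 0.234% of the gene, against 2.40% at 100 to 500 kb. It was under 1 kb in 35 genes, of which 7 had no base inside the gene, 1 to 5 kb in 37, 5 to 10 kb in 15, and at least 10 kb in 7 (7.45%, 3.05 to 14.7), against 32.1% (29.8 to 34.5) at 100 to 500 kb. In these 94 genes no chain from the outermost start exceeded 46.5 kb, whereas the longest in genes of 100 to 500 kb was 203 kb.

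Among genes with strong H3K79me2 at the start, reach was shorter in the longest genes. Where the −log10 q of the H3K79me2 peak near the start was at least 100, the median reach was 3.41 kb (2.51 to 6.12) in 38 of the longest genes, against 9.11 kb (8.28 to 10.3) in 902 genes of 100 to 500 kb. Between 20 and 100 it was 1.42 kb (0.832 to 2.68) in 31, against 1.93 kb (1.69 to 2.36) in 445, and below 20 it was 0.812 kb (0.606 to 1.52) in 25, against 0.947 kb (0.817 to 1.12) in 199. The intervals were apart in the strongest class and overlapped in the other 2. The strongest class has no upper limit, so strength was not held equal within it. Over all start peaks of H3K79me2, the upper quartile of −log10 q was 217 in the longest genes, against 319 at 100 to 500 kb. Among the 94 genes, Spearman's rho between length and reach was -0.0088, a description over genes of 1 library each with no test.

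By distance, H3K79me2 peaks covered 59.3% of the first 1 kb in the 94 genes, against 72.2% at 100 to 500 kb, and 36.9% between 1 and 2 kb, against 59.8%. From 2 to 5 kb the covered share was 16.4%, against 39.6%, from 5 to 10 kb 7.48%, against 24.8%, and from 10 to 20 kb 3.79%, against 14.9%. In the stretch from 20 to 50 kb it was 1.66%, against 6.25%. The covered share was below that of the shorter genes at each of these 6 distances.

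**Figure D2:**
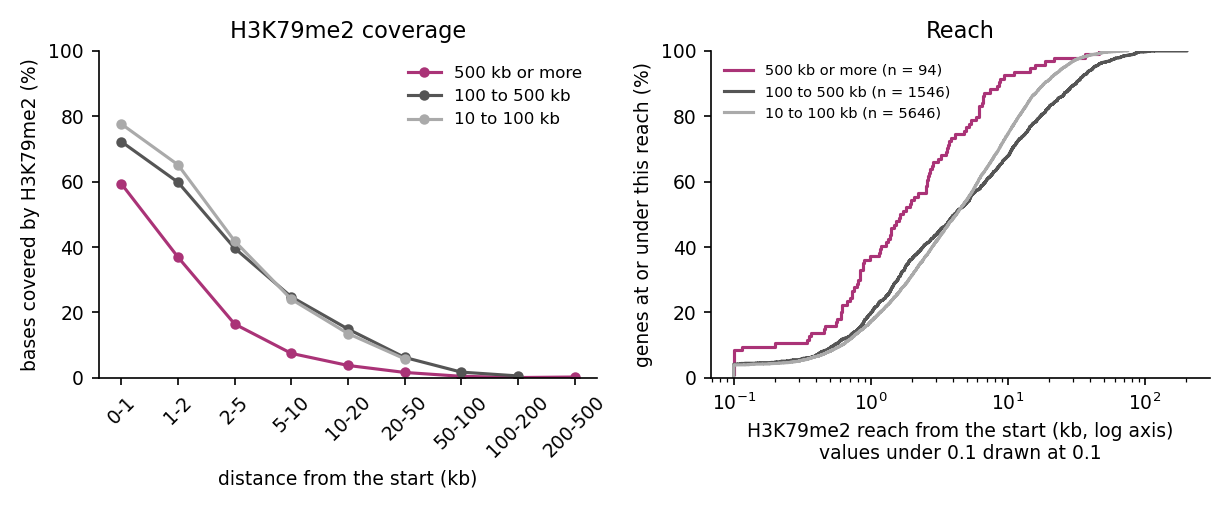
Left, share of bases (%) covered by H3K79me2 peaks by distance from the start (kb) in genes with a chain, and right, the cumulative share of genes (%) by reach (kb, log axis) for 94 genes of 500 kb or more, 1546 of 100 to 500 kb and 5646 of 10 to 100 kb. The curve of the longest genes lies left of the others, with a median of 1.67 kb against 4.08 and 4.22 kb.

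Of the 10 longest reaches, 4 belonged to genes on the list of broadly used cell functions (FAF1, LRBA, CDKAL1 and RABGAP1L), which supplied 21 of all 94 genes with a chain (22.3%). FAF1 (chr1:50437028-50960267, minus strand) had the longest, 46.5 kb, and its start peaks had −log10 q of 202 for H3K79me2, 56.2 for H3.3, 120.2 for H2AZ Abcam and 22.1 for H2AZ CST, with no H4K16ac. All 46 of its inner peaks were H3K79me2, and CDKN2C, a cell cycle inhibitor gene, lay within 5 kb of its chain. CAMTA1 (chr1:6785454-7769706, plus strand) followed with 36.5 kb and start values of 306 for H3K79me2, 8.87 for H4K16ac, 24.7 for H3.3, 101 for H2AZ Abcam and 32.2 for H2AZ CST. LRBA (chr4:150264435-151015727, minus strand) reached 21.6 kb with 67.4 for H3K79me2, 9.66 for H4K16ac, 47.5 for H3.3, 269.5 for H2AZ Abcam and 98.3 for H2AZ CST. These 3 were the only genes whose chain from the outermost start passed 20 kb. GSE1, a coiled-coil protein of histone deacetylase complexes, reached 18.7 kb, GPHN (gephyrin, which anchors inhibitory receptors and makes molybdenum cofactor) 15.8 kb, AUTS2 (a neurodevelopmental partner of Polycomb complexes) 14.6 kb and ERC1 (a cortical scaffold of secretion sites) 11.1 kb. CDKAL1, which modifies transfer RNA, reached 9.44 kb from a start with a −log10 q of 15.5 and neither H3.3 nor H4K16ac. RABGAP1L, a Rab GTPase-activating protein, reached 8.81 kb, and TASP1, the protease that cleaves KMT2A, 8.56 kb. Of the 51 genes with no strand, 17 had a chain from an end, with a median of 1.88 kb. Their longest were AGAP1, an Arf GTPase-activating protein, at 50.7 kb and the polarity gene PARD3 at 11.3 kb.

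Several genes carried H3K79me2 at a start far inside the outermost one. RefSeq gave 149 of the 251 genes a further start more than 5 kb inside, 342 starts in all. Of these, 37.7% (32.6 to 43.1) had H2AZ Abcam, 33.3% (28.4 to 38.6) H2AZ CST, 21.9% (17.7 to 26.7) H3.3, 16.1% (12.4 to 20.4) H3K79me2 and 14.04% (10.5 to 18.2) H4K16ac within 1 kb, and starts that lie close together share peaks. H3K79me2 was at such an inner start and not at the outermost in 19 genes, at both in 11, and only at a start within 5 kb of the outermost in 3. Counting any annotated start, 113 genes (45.02%, 38.8 to 51.4) had H3K79me2, against 36.3% by the outermost start, and 138 had none. A chain from any start existed in the same number, 113 (45.02%), against 67.8% of genes of 100 to 500 kb. From the outermost start the chain shares were 37.5% and 62.0%, so both classes rose. The inner-start shares and the counts of 19, 11 and 3 genes were not made in shorter genes. The longest reach from any start then had a median of 1.85 kb (1.40 to 2.68) in the 113, against 4.57 kb (3.99 to 5.25) in 1692 genes of 100 to 500 kb counted the same way. It passed 10 kb in 11 of the 113 (9.73%, 4.96 to 16.8), against 33.8% (31.6 to 36.1).

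ROBO1 (chr3:78597239-79767998, minus strand), a SLIT receptor of axon guidance, showed this most. Its outermost start had −log10 q of 25.6 for H2AZ CST and 148 for H2AZ Abcam and neither H3.3, H4K16ac nor H3K79me2. At the start 749 kb inside, the values were 574 for H3K79me2, 46.1 for H3.3, 52.5 for H2AZ Abcam and 30.05 for H2AZ CST, and the chain from there was 48.9 kb long. ADGRL2, an adhesion receptor of the latrophilin family, had no peak at its outermost start, whereas 494 kb inside it had 639 for H3K79me2, 9.90 for H4K16ac, 86.4 for H3.3, 268 for H2AZ Abcam and 54.8 for H2AZ CST, with a reach of 13.98 kb. The homeobox factor ZFHX3 had nothing at its outermost start and a reach of 11.5 kb from a start 833 kb inside. The transcription factors KLF12, with 5.63 kb from 172 kb inside, and CREB5, with 9.07 kb from 113 kb inside, also had no peak at the outermost start. NRXN3, whose upstream sequence is printed above, had its H3K79me2 (−log10 q 35.4) at a start 1109 kb inside, with a reach of 3.12 kb. GSE1 had H3K79me2 at the outermost start (80.8) and at one 444 kb inside (507), where the chain ran 48.6 kb. ADK, the adenosine kinase gene, had a −log10 q of 455 at the outermost start, with 6.18 kb of reach, and 182 at a start 25.5 kb inside, with 22.6 kb. From any annotated start, 6 genes passed 20 kb, and 3 of them (ROBO1, GSE1 and ADK) did so from an inner one.

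H3K79me2 was also found away from the outermost start. Of the 94 genes with a chain, 28 had a further H3K79me2 peak beyond it, the farthest at a median of 380.2 kb from the start. In 26 of 251 genes H3K79me2 lay inside and none within 5 kb of the outermost start. Both counts include peaks at inner starts, and 19 genes had H3K79me2 at such a start and not at the outermost. In 7 genes a peak lay over 5 kb inside with no H3K79me2 at any annotated start. The longest run of all 302 genes, again with gaps of up to 5 kb, was 69.4 kb in AUTS2 (chr7:70693864-70763297). H3K79me2 peaks covered 31.8 kb of the whole AUTS2 gene, so the larger part of the run was gaps. The run began 1095 kb from the outermost start, had no annotated AUTS2 start within 5 kb, and lay within 5 kb of the uncharacterised gene LOC105375347. Its strongest peak had a −log10 q of 419.9, above the 388 at the start. GPHN had a run of 18.6 kb that began 846 kb inside and lay within 5 kb of ATP6V1D and EIF2S1, genes of a proton pump subunit and a translation initiation factor. Runs of 10 kb or more were found in 17 genes, 8 of them with another gene within 5 kb. Of the 12 with annotated starts in the promoter table, 10 had a start of the same gene within 5 kb, and AUTS2 and GPHN had none. What reads from such neighbours add to a run was not tested. The counts in this paragraph were made in the longest genes only, so no background from shorter genes stands beside them.

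**Figure D3:**
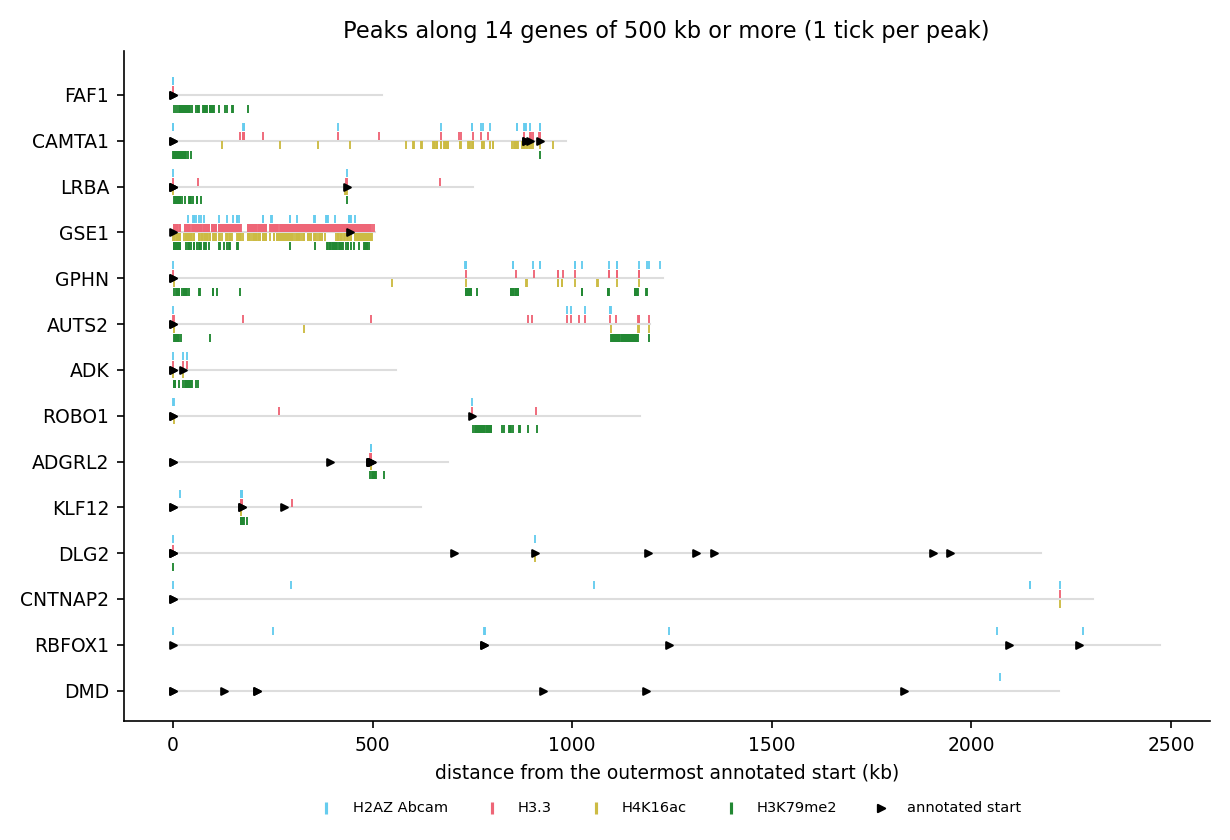
Peaks along 14 genes drawn to scale, 1 tick per peak, by distance from the outermost start (kb). H2AZ Abcam and H3.3 lie above the line, H4K16ac and H3K79me2 below it, and the outermost and annotated starts are triangles. H3K79me2 begins at the first triangle in FAF1, at the triangle 749 kb inside in ROBO1 and 494 kb inside in ADGRL2, and is missing in CNTNAP2, RBFOX1 and DMD.

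Inside the genes, peaks per 100 kb were fewer than in shorter genes and concentrated in a few members. A peak was inner when its summit lay more than 5 kb from both ends. Pooled over the 302 genes there were 0.268 inner H3K79me2 peaks per 100 kb, against 2.44 in genes of 100 to 500 kb and 6.11 in those of 10 to 100 kb. H4K16ac had 0.498, against 2.27 and 6.59, and H3.3 had 0.343, against 1.48 and 5.37. H2AZ CST had 0.318, against 0.719 and 1.91, and H2AZ Abcam 0.267, against 0.577 and 1.51. Inner H3K79me2 peaks that lie near the start are divided by a longer span in longer genes, and what this adds was not tested. A margin of 50 kb from both ends gave 0.184 for H3K79me2 in the longest genes and was not tried in the shorter ones. Counted per gene, the comparison was different, but a longer gene offers more inner length in which a peak could fall. What length adds to the values per gene was not tested. Medians over the 302 genes were 0.121 for H2AZ CST and 0.134 for H2AZ Abcam and 0 for the other lists, against 0 for every list in genes of 100 to 500 kb. There was no inner H3K79me2 peak in 232 genes (76.8%), against 56.3% at 100 to 500 kb. For the other lists the share without an inner peak was lower in the longest genes. It was 164 genes (54.3%) for H3.3, against 60.4%, 161 (53.3%) for H4K16ac, against 58.6%, 124 (41.1%) for H2AZ CST, against 61.9%, and 110 (36.4%) for H2AZ Abcam, against 63.8%. Inner peaks were weaker than start peaks in each list, with median −log10 q of 7.52 against 67.4 for H3K79me2, 13.4 against 127 for H2AZ Abcam, 8.82 against 35.2 for H2AZ CST, 9.00 against 20.9 for H3.3 and 6.14 against 7.91 for H4K16ac. For the start, the strongest peak was taken, while every inner peak was counted.

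The 10 genes with the most inner peaks held 61.3% of all inner H3K79me2 peaks, 63.3% of those of H4K16ac and 58.2% of those of H3.3, against 35.8% for H2AZ CST and 32.2% for H2AZ Abcam. GSE1 (chr16:85169512-85676200, plus strand) stood far above the others with 298 inner H3.3 peaks (60.0 per 100 kb), 209 of H4K16ac (42.1), 67 of H3K79me2 (13.5), 44 of H2AZ CST (8.86) and 34 of H2AZ Abcam (6.85). It alone held 34.7% of the inner H3.3 peaks of all 302 genes, 16.8% of those of H4K16ac and 9.99% of those of H3K79me2, and without it the pooled H3.3 density was 0.224 per 100 kb. SORCS2, a sorting receptor of neurons, had 21.3 H4K16ac peaks per 100 kb, 5.37 of H2AZ CST and 3.70 of H3.3 and no H3K79me2. RBFOX3, the splicing factor known as NeuN, had 16.4 of H4K16ac, 8.12 of H3.3 and 6.53 of H2AZ CST, and again no H3K79me2. PTPRN2, a phosphatase-like protein of secretory granules, with 6.35 of H4K16ac and 4.43 of H2AZ CST, and SHANK2, a postsynaptic scaffold with 9.54 of H4K16ac, lacked H3K79me2 as well. AGAP1 differed from these in H3K79me2 and H2A.Z, with 54 inner H3K79me2 peaks (8.60 per 100 kb), 33 of H4K16ac (5.26 per 100 kb), 8 of H3.3 and none of H2AZ CST, and FAF1 had 46 of H3K79me2 (8.96 per 100 kb) and none of the other lists.

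**Figure D4:**
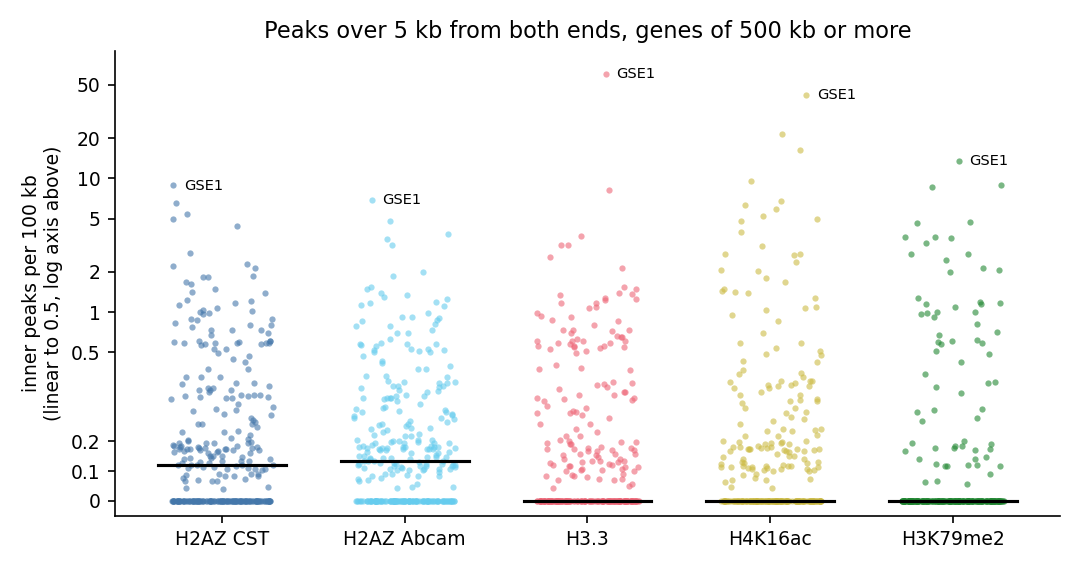
Inner peaks per 100 kb in each of the 302 genes (1 point per gene, vertical axis linear up to 0.5 and logarithmic above), by list, with the median as a bar. Most points lie at or near 0, the medians of H3.3, H4K16ac and H3K79me2 are 0, and GSE1 is the highest gene in every list.

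Genes with H3K79me2 at the start held more H3.3 and H4K16ac peaks inside, though GSE1 supplied most of both differences, and no more H2A.Z peaks once GSE1 was left out. In the 91 with H3K79me2 at the start, the pooled densities per 100 kb were 0.676 for H3.3 and 0.700 for H4K16ac, against 0.196 and 0.261 in the 160 without. For H2AZ CST they were 0.316 against 0.313 and for H2AZ Abcam 0.278 against 0.252. The median gene had 0.113 inner H3.3 peaks per 100 kb with H3K79me2 at the start, against 0 without. GSE1 had H3K79me2 at the start, and leaving it out gave 0.267 for H3.3, 0.416 for H4K16ac, 0.258 for H2AZ CST and 0.233 for H2AZ Abcam in the other 90, so that both H2A.Z densities were then lower than in genes without H3K79me2 at the start. Position within the gene differed by list too. Of 544 inner H3K79me2 peaks in oriented genes, 37.9% fell in the 10% of the inner length next to the start and 14.3% in the 10% next to the far end. Of 862 inner H4K16ac peaks, 5.80% fell next to the start and 29.5% next to the far end, and without GSE1 the shares were 4.13% and 32.2%. H3.3 had 6.61% and 18.1%, H2AZ CST 6.73% and 15.1%, and H2AZ Abcam 9.94% and 14.9%. The 254 H4K16ac peaks next to the far end came from 42 genes.

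An annotated start of the same gene lay within 1 kb of 23.4% of inner H2AZ Abcam summits (19.9 to 27.2), 21.3% of H2AZ CST (18.2 to 24.6), 11.2% of H3.3 (9.07 to 13.7), 9.01% of H3K79me2 (6.74 to 11.7) and 4.99% of H4K16ac (3.63 to 6.66). Between 12.8% and 17.6% of the summits lay in another annotated gene instead. Where peaks of both H2A.Z antibodies overlapped inside a gene, the place was counted as a paired site, and 151 of the 302 genes held 488 of them. H3.3 lay within 1 kb of 57.8% of these sites, H4K16ac of 41.4% and H3K79me2 of 31.4%. Of the 427 sites in oriented genes, 140 (32.8%) were within 1 kb of an annotated start of the gene. Another gene lay within 5 kb of 171 sites (35.04%). The shares in this paragraph were counted in the longest genes only, so no background from other genes stands beside them. GSE1 had 34 paired sites, LRRC37A2 20, GPHN 17, PTPRN2 16 and RANBP2 15. The RefSeq spans of some of these hold many other genes, with 21 in or over GPHN, 14 in or over LRRC37A2, 12 in or over the nucleoporin gene RANBP2 and 7 in or over GSE1, and LRRC37A2 belongs to a family of near-identical copies on which the reads may not be placed with certainty.

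By gene function, H2AZ Abcam was found at most starts of every group but RNA-binding proteins, and H3K79me2 at between 0% and 80% of starts. Over all 251 of the longest genes the shares were 70.5% and 36.3%, and over all oriented genes 70.6% and 56.5%. The groups were lists of known function, 183 of the 302 genes were in at least 1 list, and some genes were in more than 1. Among genes of broadly used cell functions, 20 of 25 oriented starts had H3K79me2 (80%, 59.3 to 93.2) and 24 had H2AZ Abcam. FBXL17, an F-box protein of ubiquitin ligases, had a −log10 q of 469 for H3K79me2 with a reach of 2.51 kb, and the reach of this group had a median of 3.72 kb over 21 genes. ARHGAP15, a Rac GTPase-activating protein of blood cells, was in this group without a peak of any list. Scaffold and polarity proteins had H3K79me2 at 8 of 12 starts (66.7%, 34.9 to 90.1), among them MAGI1 (219, reach 6.61 kb) and MAGI2 (98.8, reach 0.880 kb), junctional scaffolds. Of the common fragile site genes, 14 of 22 starts (63.6%, 40.7 to 82.8) had H3K79me2 and 20 had H2AZ Abcam. DAB1, an adaptor of reelin signalling with 108 for H3K79me2 and 346 for H2AZ Abcam, reached 2.07 kb, and the median reach of the 14 was 1.48 kb. Another gene, OMA1, lay within 5 kb of the DAB1 chain.

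Receptor-type tyrosine phosphatases had H3K79me2 at 3 of 5 starts, with reaches of 3.25 kb in PTPRG, 3.56 kb in PTPRK and 1.71 kb in PTPRM. Transcription factors and cofactors had it at 7 of 14 (50%, 23.04 to 77.0), with MECOM, a zinc finger factor of blood stem cells, at 340 and a reach of 5.40 kb. Kinases, phosphodiesterases and lipid signalling genes had it at 5 of 10. There, PDE1A, a cyclic nucleotide phosphodiesterase, had 275 with a reach of 0.828 kb, and PRKCE, a protein kinase C, 233 with 2.58 kb. The PDE1A chain had no annotated PDE1A start within 5 kb and lay within 5 kb of DNAJC10 and LOC101929976.

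At the outermost start, the H2AZ Abcam intervals of the groups of neuronal surface proteins held the 70.6% of all oriented genes. Their H3K79me2 intervals lay below the 56.5% of all oriented genes and held the 36.3% of all the longest genes. Below 56.5% also lay muscle, matrix and proteoglycan genes (up to 52.4), RNA-binding proteins (up to 52.2) and genes in no list (up to 42.1). Inner starts were not counted by group. ADGRL2 of the synaptic group had H3K79me2 at a start 494 kb inside (−log10 q 639). ROBO2 of the axon guidance group had it 1133 kb inside (5.44). Synaptic and cell adhesion genes had H2AZ Abcam at 16 of 23 starts (69.6%, 47.1 to 86.8) and H3K79me2 at 5 (21.7%, 7.46 to 43.7, an interval that holds the 36.3% of all the longest genes). TENM4, a teneurin of synapse formation, was among the 5 with a −log10 q of 26.0 and a reach of 3.67 kb. Axon guidance and growth factor receptors had H2AZ Abcam at 10 of 14 and H3K79me2 at 2, EPHA6 (182) and ERBB4 (27.9), both receptor tyrosine kinases. Neurotransmitter receptors and ion channels had H2AZ Abcam at 9 of 16 and H3K79me2 at 2. GRM8, a metabotropic glutamate receptor, had 412 for H2AZ Abcam, 65.2 for H2AZ CST, 17.5 for H3.3 and 5.72 for H4K16ac without H3K79me2. RYR2, the cardiac calcium release channel, had 317 for H2AZ Abcam and 6.65 for H3K79me2. Cadherins and catenins had H2AZ Abcam at 7 of 9 and H3K79me2 at 1, PCDH9, whose chain had no base inside the gene. CTNNA3 and PCDH15, of this group, had 115 and 94.9 for H2AZ Abcam. Muscle, matrix and proteoglycan genes had H2AZ Abcam at 12 of 16 and H3K79me2 at 4 (25%, 7.27 to 52.4), with UTRN, the dystrophin relative utrophin, at 244 and a reach of 1.93 kb, while dystrophin itself had no peak at its starts. The glypican GPC5 of this group had 399.7 for H2AZ Abcam and 46.8 for H3K79me2. RNA-binding proteins had H2AZ Abcam at 2 of 5 and no H3K79me2, and genes in no list had 63 and 32 of 100. The intervals of the H3K79me2 share in broadly used cell functions and in synaptic and cell adhesion genes did not overlap, and those of H2AZ Abcam (79.6 to 99.9 and 47.1 to 86.8) did. The lists were chosen with earlier results of these data known, so this contrast is a description only.

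**Figure D5:**
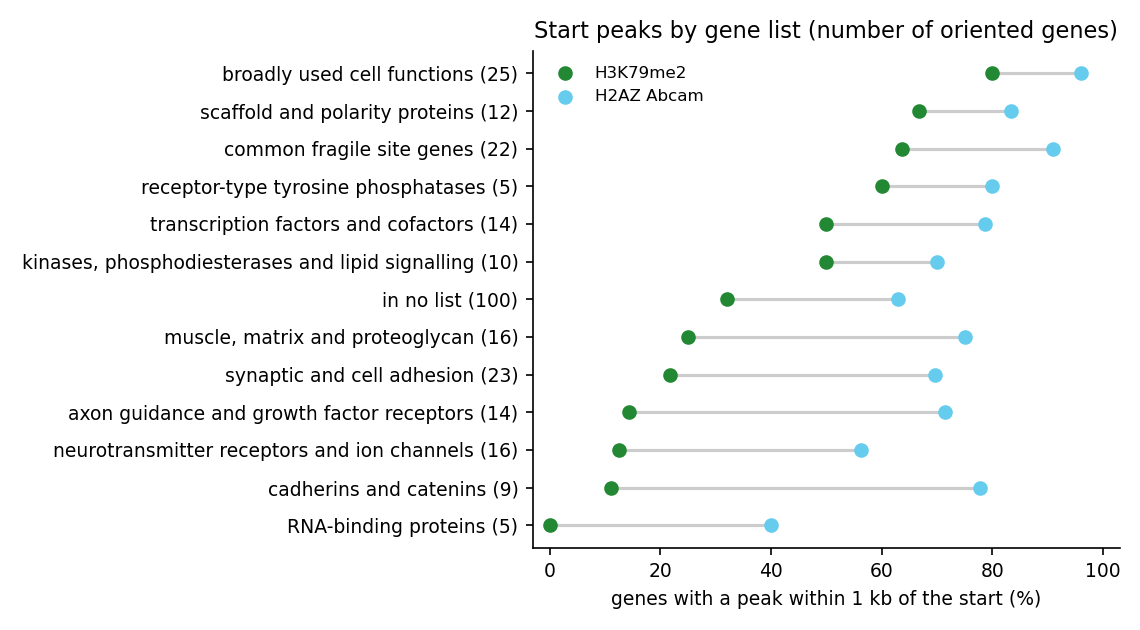
Share of oriented genes (%) of each gene list with a peak within 1 kb of the outermost start, for H3K79me2 and H2AZ Abcam, with the number of genes in brackets. The 2 points lie close together in broadly used cell functions (80% and 96%) and far apart in cadherins and catenins (11.1% and 77.8%).

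The genes nearest the length limit were these. AFF2 (500.05 kb), PPP2R2B (500.8 kb) and PPFIA2 (501 kb) were just long enough, and none of them had H3K79me2, while AFF2 and PPFIA2 had both H2A.Z lists and H3.3 at an end. Just under the limit, ITPR2 (498 kb) and DIAPH3 (498 kb) had H3K79me2 and H2A.Z at an end, and CPQ (498 kb) had H2A.Z, H3.3 and H4K16ac without H3K79me2.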

How the data were processed

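ChIP-seq peak lists of 5 antibodies in HEK293T cells, 1 library each, were used as deposited. The tools named, per the submitters' processing notes, are MACS2 2.1.0, Bowtie 1.1.2, Trimmomatic 0.33 and bcl2fastq 2.17, on build hg38. The sources used here do not give their settings, the use of the input, the treatment of reads with several matches or the read depth. As deposited, the lists give each peak's position and summit, the authors' −log10 q-value and −log10 p-value, a fold enrichment (a linear ratio) and an integer score. Positions, summits and the authors' −log10 q were used, the last to describe or filter peaks within a list, and the authors' smallest −log10 q lay near 2 in every list. The fold, the −log10 p and the score as deposited by the authors were not used in any result.

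Genes came from the RefSeq table of GRCh38.p14, the assembly of hg38. It holds no strand and no exons, so strand and further starts were read from the RefSeq promoter table, and peaks were not assigned to exons, introns or untranslated regions. Genes with no strand there (51 of 302) were described by either end. Start and far-end peaks overlapped a window of 1 kb on each side, inner summits lay over 5 kb from both ends, and H3K79me2 chains allowed gaps of 5 kb. Shares have exact Clopper-Pearson intervals and medians have order-statistic intervals, both at 95%, and they cover counting error only. No test was made. The measures were tested on simulated data, where reach, start peaks and inner peaks were recovered in 200 of 200 genes. Inner peaks were counted there with a wider margin than 5 kb, so the 5 kb margin itself was not tested. Python 3.11.15, numpy 2.4.6, pandas 2.3.3, scipy 1.17.1 and matplotlib 3.10.9 were used.

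The genes and the gene lists were chosen with earlier results of these data known. Named genes are the 10 with the longest reach, the 5 longest, the 5 with the most inner peaks per 100 kb in each list and the 5 with the most paired sites. They are also for each gene list up to 3 with the largest sum of −log10 q at the start and up to 2 with no peak at either end, the 5 with the most H3K79me2 inside and none near the start, and the 3 on each side of 500 kb. Far-end genes, examples without any peak and genes with long runs or inner starts beyond these were chosen after their values were seen. Alternatives varied the windows, gaps, peak strength, neighbouring genes and choice of start.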

Additional observations from a re-analysis of the deposited data

How the results depend on the processing

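No paired analysis was possible because each antibody had 1 library, and for the same reason no replicate could be left out. Keeping only the 10000 peaks of highest −log10 q in each list moved most values, that is, took them outside the reported value's interval or changed a count or density by over 1.5 times. The share of genes with a start peak became 20.7% for H3K79me2, 3.19% for H4K16ac, 18.3% for H3.3, 45.8% for H2AZ Abcam and 35.5% for H2AZ CST. The far-end share became 0.797% for H2AZ Abcam and 0.398% for H4K16ac, H3.3 and H2AZ CST. Inner peaks per 100 kb became 0.0180 for H3K79me2, 0.0216 for H4K16ac, 0.0356 for H3.3, 0.0364 for H2AZ Abcam and 0.0296 for H2AZ CST. The share with no peak from end to end became 72.8% for H3K79me2, 89.4% for H4K16ac, 71.9% for H3.3, 39.1% for H2AZ Abcam, 51.7% for H2AZ CST and 32.1% for all lists together, and 0 genes had a reach of 10 kb. By construction this setting leaves fewer peaks. A minimum −log10 q of 5 moved the inner density of H4K16ac to 0.322 and its share of genes without a peak to 47.4%. Windows of 5 kb moved the far-end share to 4.78% for H3K79me2, 10.8% for H4K16ac, 9.16% for H3.3, 7.97% for H2AZ Abcam and 8.76% for H2AZ CST. Gaps of up to 20 kb gave 16 genes with a reach of 10 kb or more, against 7 with gaps of 5 kb. Leaving out paired sites within 5 kb of another gene left 317. Of alternatives added after the data were seen, counting any annotated start moved the start share to 45.02% for H3K79me2, 43.8% for H4K16ac, 61.8% for H3.3, 86.9% for H2AZ Abcam and 82.5% for H2AZ CST, and leaving out GSE1 moved the inner H3.3 density to 0.224. The third, leaving out chains with no base inside the gene, gave a median reach of 1.97 kb over 87 genes, within the interval of 1.19 to 2.58 kb around the reported median, and left the count at 7. The cause of these changes was otherwise not tested. The median reach stayed below that of genes of 100 to 500 kb under the alternatives tried for both classes, with 1.86 against 6.62 kb at gaps of 20 kb, 1.48 against 3.17 kb at gaps of 2 kb, 1.63 against 3.63 kb at −log10 q of 5 and 1.41 against 2.14 kb for the strongest 10000 peaks. Unknown read depth and the unknown use of the input limit what an absent peak can mean: it says that none was called in that library.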
